A study of Mus musculus with 48 samples.

Results

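The genes described here are 31 members of the unfolded protein response and the integrated stress response, taken by name out of the 55487 genes of the deposited tables. They were sorted by role into 6 sensors and transcription factors (Ern1, Eif2ak3, Atf6, Xbp1, Atf4, Atf3) and 13 endoplasmic reticulum (ER) chaperones and folding enzymes (Hspa5, Hsp90b1, Hyou1, Dnajb9, Dnajc3, Sdf2l1, Pdia3, Pdia4, Pdia6, Calr, Canx, Manf, Creld2). The others were 4 genes of ER-associated degradation (Herpud1, Sel1l, Edem1, Syvn1), 7 targets of ATF4 (Trib3, Chac1, Asns, Psat1, Phgdh, Slc7a11, Ddit3) and Ppp1r15a. The study sequenced polyadenylated RNA of myeloid cells sorted out of digested lymph nodes of mice. The mice carried tumors according to the design text and were of wild type genotype, while the tumor, the strain and the age are not given in the sources used here. Medullary sinus macrophages (MSM), subcapsular sinus macrophages (SSM), migratory dendritic cells (mDC) and resident dendritic cells (rDC) came from the lymph node (LN) or the tumor-draining lymph node (TDLN) of animals given cisplatin or PBS, a buffered saline. Cisplatin is a platinum drug that crosslinks DNA. The 4 cell types, 2 nodes and 2 treatments make 16 groups of 3 libraries, and the labels name no animal for any library. P-values therefore measure the spread between these libraries, which may be technical.

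Proteins destined for secretion or the cell surface fold in the ER. When unfolded protein builds up there, 3 sensors in the ER membrane respond: the kinase and nuclease IRE1 (Ern1), the kinase PERK (Eif2ak3) and the precursor of the transcription factor ATF6. IRE1 splices the RNA of Xbp1, and XBP1 and ATF6 raise chaperones and degradation factors. PERK and related kinases phosphorylate eIF2alpha, which slows translation in general while Atf4 RNA is translated more, and ATF4 drives genes of amino acid supply, glutathione metabolism and cell death. In dendritic cells IRE1 and XBP1 are known to be active without an added stress. Because splicing of Xbp1 and translation of Atf4 are regulated after transcription, gene counts show the amount of these RNAs and not the activity of the factors.

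Libraries of macrophages held 6456456 to 10434248 counts. Of the dendritic cell libraries, 18 held 2002713 to 3842097 counts, and the 6 libraries of mDC TDLN PBS and rDC LN PBS held 10733509 to 15481059 counts, so depth and group cannot be told apart in comparisons with those 2 groups. Among the macrophages 4 libraries resembled the other cell type label: library 2 of both MSM and SSM in LN PBS, and in TDLN CIS library 1 of MSM and library 3 of SSM. Macrophage results are therefore given with all libraries as labelled and without those 4. The library rDC TDLN CIS 2 also stood apart from the 2 others of its group. Summed over 9 macrophage markers, MSM LN CIS held 1734 to 1811 CPM (counts scaled to a fixed library total). The other macrophage libraries held 8009 to 23269.9 CPM, so the label of MSM LN CIS goes against these markers. Siglec1, one of them, stood at 0 to 0.287 CPM in MSM LN CIS but was low elsewhere too. It held 8.04 to 14.2 CPM in SSM TDLN PBS and 15.5 to 25.3 CPM in some libraries of LN PBS and TDLN CIS. The remaining macrophage libraries held 128 to 360 CPM of Siglec1. Over 7 markers of migratory dendritic cells, mDC held 26326 to 32668 CPM and rDC 711 to 1244 CPM. In sorted bulk RNA, fewer cells of a type and less RNA per cell cannot be told apart.

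Some promoters of the members hold the short sequences through which these factors are known to act, and they are shown because the matches fall unevenly over the role classes. Windows from 250 bases before to 50 bases after the start were taken from RefSeq (GRCm38.p6), where 28 of the 31 members matched. Of the 28 windows, 15 held at least 1 of the 5 motifs searched and 13 held none. The ER stress response element, searched on both strands as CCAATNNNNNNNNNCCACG, stood in 8 of those 28 windows and in 0.119% of all 32851 windows. The 8 members were Hspa5, Hsp90b1, Calr, Canx, Pdia6, Dnajc3 and Creld2, which are 7 of the 11 chaperone and folding genes with a window, and Syvn1. The second form of the element, ATTGG and CCACG with 1 base between them, stood in Herpud1 and in 0.037% of windows. The amino acid response element of ATF4, searched as TGATGNAA, stood in 4 of 7 ATF4 targets (Asns, Chac1, Slc7a11, Trib3), in Atf3 and in Herpud1, and in 3.97% of windows. Capitals mark the matched letters, or their reverse complement, in the stretches below, each 5′ to 3′ on the strand of its gene and lying before the RefSeq start.
Hspa5: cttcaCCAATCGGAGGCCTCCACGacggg
Pdia6: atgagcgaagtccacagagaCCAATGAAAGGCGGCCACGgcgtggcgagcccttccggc
Calr: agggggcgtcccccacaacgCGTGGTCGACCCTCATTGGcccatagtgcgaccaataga
Hsp90b1: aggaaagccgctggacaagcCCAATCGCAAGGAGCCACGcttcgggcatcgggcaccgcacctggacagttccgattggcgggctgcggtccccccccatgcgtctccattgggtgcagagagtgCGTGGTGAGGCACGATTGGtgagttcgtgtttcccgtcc
Herpud1: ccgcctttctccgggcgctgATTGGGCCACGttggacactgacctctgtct
Asns: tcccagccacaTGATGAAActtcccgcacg
Chac1: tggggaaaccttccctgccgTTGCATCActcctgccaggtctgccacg
Slc7a11: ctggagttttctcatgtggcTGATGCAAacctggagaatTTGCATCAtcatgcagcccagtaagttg
The stretches lie at chr2:34772020-34772048 (plus strand, Hspa5), chr12:17266471-17266529 (plus, Pdia6), chr8:84847055-84847113 (minus, Calr), chr10:86705513-86705676 (minus, Hsp90b1), chr8:94386357-94386407 (plus, Herpud1), chr6:7693214-7693243 (minus, Asns), chr2:119351029-119351076 (plus, Chac1) and chr3:50443633-50443699 (minus, Slc7a11). Hsp90b1 holds the element once on each strand, and Slc7a11 holds 2 amino acid response elements. TGACGTGG, the unfolded protein response element, stood in 0.676% of windows and in none of the 28, and TGACGTCA, the cyclic AMP response element, in 1.79% and in Ppp1r15a. Matches describe the letters of these windows and not binding.

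On the TPM scale, which corrects for transcript length, Ppp1r15a, Hspa5 and Herpud1 were among the leading members. The median of the 4 group means in mDC was highest for Ppp1r15a with 2354 TPM, ahead of Herpud1 with 634 and Hspa5 with 596. Ppp1r15a (GADD34) is the subunit that directs a phosphatase to eIF2alpha. In rDC, Hspa5, the ER chaperone BiP, led with 1344 TPM before Herpud1 with 741, Calr with 724 and Ppp1r15a with 642. In deposited macrophage TPM, whose decimals were dropped, Ppp1r15a (1171) and Hspa5 (1066) led in MSM, and Hspa5 (959) and Ppp1r15a (845) in SSM. Trib3, Chac1 and Asns were among the lowest in each cell type, with medians of 0.333 to 5.36 TPM. Group means of Herpud1 and Hspa5 overlapped in mDC, from 619 to 747 and from 455 to 718 TPM, so their order there is not fixed.

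Migratory and resident dendritic cells differed in most of the members. Most chaperones and folding enzymes, Xbp1, Ern1 and Syvn1 were lower in mDC, while Ppp1r15a, Sel1l, Edem1, Slc7a11 and Asns were higher. Of 30 members tested in LN PBS, 21 were lower and 6 higher in mDC, where 35.0% and 31.5% of all genes were. In LN CIS the numbers were 17 and 8 (28.7% and 26.2% of all genes), in TDLN PBS 19 and 8 (35.4% and 37.0%), and in TDLN CIS 20 and 6 (28.6% and 27.5%). The same 17 members were lower and the same 5 higher in all 4 comparisons. No share of all genes called alike in all 4 stands beside these counts, so they are no result about the members as a set. Calls rest on edgeR's quasi-likelihood test over all genes with Benjamini-Hochberg adjustment at 0.05, the test behind every adjusted p given here. Log2 values are followed by standard errors. The dot plot of mDC over rDC gives each tested member in each node and treatment.

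**Figure D1:**
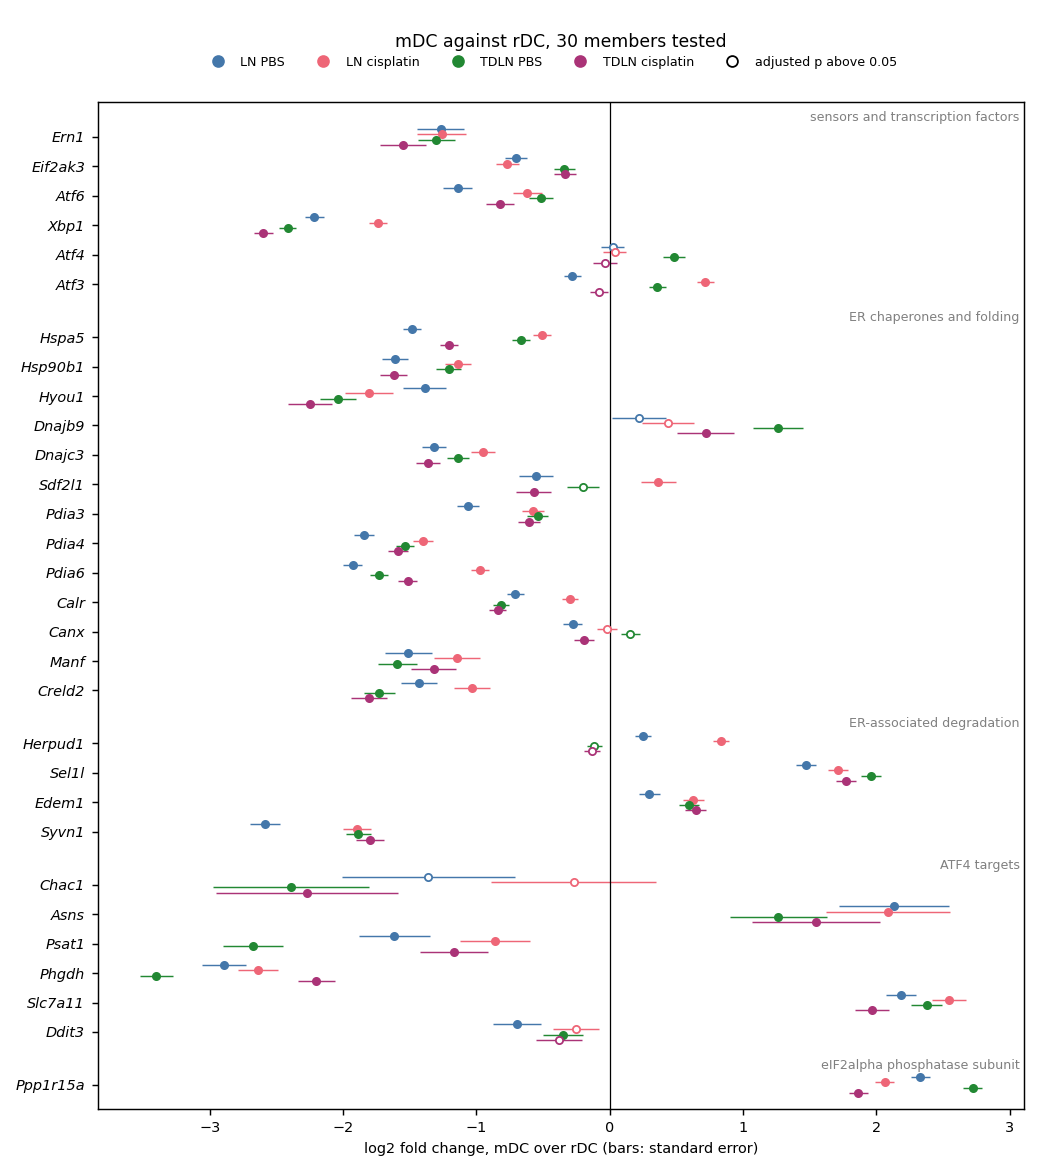
Log2 fold change of mDC over rDC for 30 members (Trib3 was not tested), with standard errors, in 4 node and treatment settings, 3 libraries a group. Filled points pass an adjusted p of 0.05. The chaperone block lies left of 0 for most members, while Sel1l, Edem1, Asns, Slc7a11 and Ppp1r15a lie right of 0 in all 4 settings.

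Of the sensors and factors, Xbp1 (chr11:5520659-5525893 on GRCm38) differed most. In LN PBS its 3 mDC libraries held 85.9, 92.7 and 86.9 CPM and its 3 rDC libraries 406, 403 and 422 CPM, and in TDLN PBS they held 89.8, 96.5 and 93.0 CPM against 512, 499 and 480 CPM. All 12 mDC libraries, at 80.5 to 118 CPM, lay below all 12 rDC libraries, at 366 to 544 CPM. The log2 fold changes were -2.22 ± 0.07 in LN PBS, -1.74 ± 0.07 in LN CIS, -2.42 ± 0.06 in TDLN PBS and -2.60 ± 0.07 in TDLN CIS (adjusted p = 1.5e-21, 2.5e-19, 1.4e-23 and 3.6e-23). Ern1, which encodes the kinase that splices Xbp1 RNA, held 11.8 to 24.3 CPM in mDC and 27.8 to 57.7 CPM in rDC, with log2 fold changes from -1.55 to -1.26. Atf6 and Eif2ak3 were lower in mDC in all 4 comparisons as well, by smaller amounts, Atf6 from -1.14 ± 0.11 in LN PBS to -0.52 ± 0.09 in TDLN PBS and Eif2ak3 from -0.77 ± 0.09 in LN CIS to -0.34 ± 0.08 in TDLN PBS. Atf4 RNA was close in both, at 104 to 167 CPM in mDC and 109 to 137 CPM in rDC, and passed the test in TDLN PBS only (0.48 ± 0.08, adjusted p = 5.7e-06).

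Among the 13 chaperones and folding enzymes, 12 were lower in mDC in LN PBS, 10 in LN CIS, 10 in TDLN PBS and 12 in TDLN CIS. The median log2 fold changes of the 13 were -1.39, -0.95, -1.14 and -1.32, against medians of -0.06, -0.08, 0.02 and -0.06 over all genes tested. Hspa5 held 650, 703 and 673 CPM in the mDC libraries of LN PBS and 1899, 1951 and 1815 CPM in those of rDC (log2 fold change -1.48 ± 0.07, adjusted p = 1.1e-17). In LN CIS the mDC libraries held 1040, 933 and 1040 CPM and the rDC libraries 1391, 1405 and 1488 CPM, so the groups stayed apart at a smaller distance of -0.51 ± 0.07. Pdia6 and Pdia4, disulfide isomerases, had log2 fold changes from -1.93 to -0.97 and from -1.84 to -1.40. Hyou1, an ER chaperone of the HSP110 family, held 9.53 to 22.0 CPM in mDC and 47.0 to 88.5 CPM in rDC, with a log2 fold change of -2.25 ± 0.17 in TDLN CIS. Hsp90b1 (GRP94), Manf and Creld2 were lower in all 4 comparisons, by 1.04 to 1.80 on the log2 scale. The chaperones called higher in mDC were Dnajb9, a J-domain co-chaperone, which was higher in mDC in both TDLN comparisons (1.26 ± 0.19 and 0.72 ± 0.21), and Sdf2l1, which was higher in LN CIS (0.36 ± 0.13), a call lost without mDC LN CIS 2, mDC LN CIS 3 or rDC LN CIS 2 (adjusted p up to 0.093).

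The 4 genes of ER-associated degradation split within one complex. Syvn1 (HRD1) is a ubiquitin ligase of the ER membrane and Sel1l its partner. Syvn1 held 29.7 to 60.4 CPM in mDC and 159 to 237 CPM in rDC, with log2 fold changes from -2.59 ± 0.11 in LN PBS to -1.80 ± 0.11 in TDLN CIS. Sel1l held 468 to 734 CPM in mDC and 139 to 196 CPM in rDC, with log2 fold changes from 1.47 ± 0.07 in LN PBS to 1.96 ± 0.07 in TDLN PBS. In neither gene did a library of one cell type overlap a library of the other. Edem1, which hands misfolded glycoproteins to degradation, was higher in mDC by 0.30 ± 0.08 to 0.65 ± 0.08, though in LN PBS its sign turned when genes of low counts were kept (-0.13). Herpud1, with the second form of the stress element shown above, was higher in mDC in LN CIS (0.84 ± 0.06) and LN PBS (0.25 ± 0.06, and -0.19 with genes of low counts kept).

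ATF4 targets went both ways between the same cells, with enzymes of serine synthesis lower in mDC and Slc7a11 and Asns higher. Phgdh, the first enzyme of serine synthesis, held 10.5, 10.1 and 12.4 CPM in mDC and 77.9, 79.8 and 88.9 CPM in rDC of LN PBS, and 11.6, 11.5 and 14.2 against 138, 132 and 127 CPM in TDLN PBS. All mDC libraries lay below all rDC libraries, with log2 fold changes from -3.40 ± 0.12 in TDLN PBS to -2.20 ± 0.14 in TDLN CIS. Psat1, the next enzyme, was lower in mDC by 0.86 to 2.67 on the log2 scale, and its call in LN CIS was lost without mDC LN CIS 2 (adjusted p = 0.057). In contrast, Slc7a11, the cystine and glutamate exchanger, held 138 to 213 CPM in mDC and 27.9 to 50.9 CPM in rDC, with log2 fold changes from 1.97 ± 0.13 to 2.55 ± 0.13. Asns, asparagine synthetase, held 3.33 to 7.87 CPM in mDC and 0.298 to 3.23 CPM in rDC and was higher in mDC by 1.27 ± 0.36 to 2.13 ± 0.41. Ddit3 (CHOP), at 11.9 to 35.5 CPM in all dendritic cells, was lower in mDC in LN PBS (-0.69 ± 0.18, adjusted p = 1.4e-03) and TDLN PBS (-0.35 ± 0.15, adjusted p = 0.040). The second call was lost in each of the 6 fits that left out 1 library (adjusted p up to 0.21). Chac1 passed in the 2 TDLN comparisons, at 0 to 1.48 CPM in mDC against 1.81 to 7.21 CPM in rDC.

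Ppp1r15a was the most abundant member of mDC. Its libraries held 2548, 2675 and 2807 CPM in mDC and 541, 515 and 542 CPM in rDC of LN PBS, and 3629, 3580 and 3513 against 537, 580 and 508 CPM in TDLN PBS. No mDC library overlapped an rDC library, and the log2 fold changes ran from 1.87 ± 0.07 in TDLN CIS to 2.72 ± 0.07 in TDLN PBS (adjusted p = 1.4e-19 and 2.0e-23). Summed over 13 genes of tissue dissociation and early response, mDC held 10760.1 to 15972 CPM and rDC 10163 to 13300.5 CPM, and the part of such genes in the difference was not tested.

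**Figure D2:**
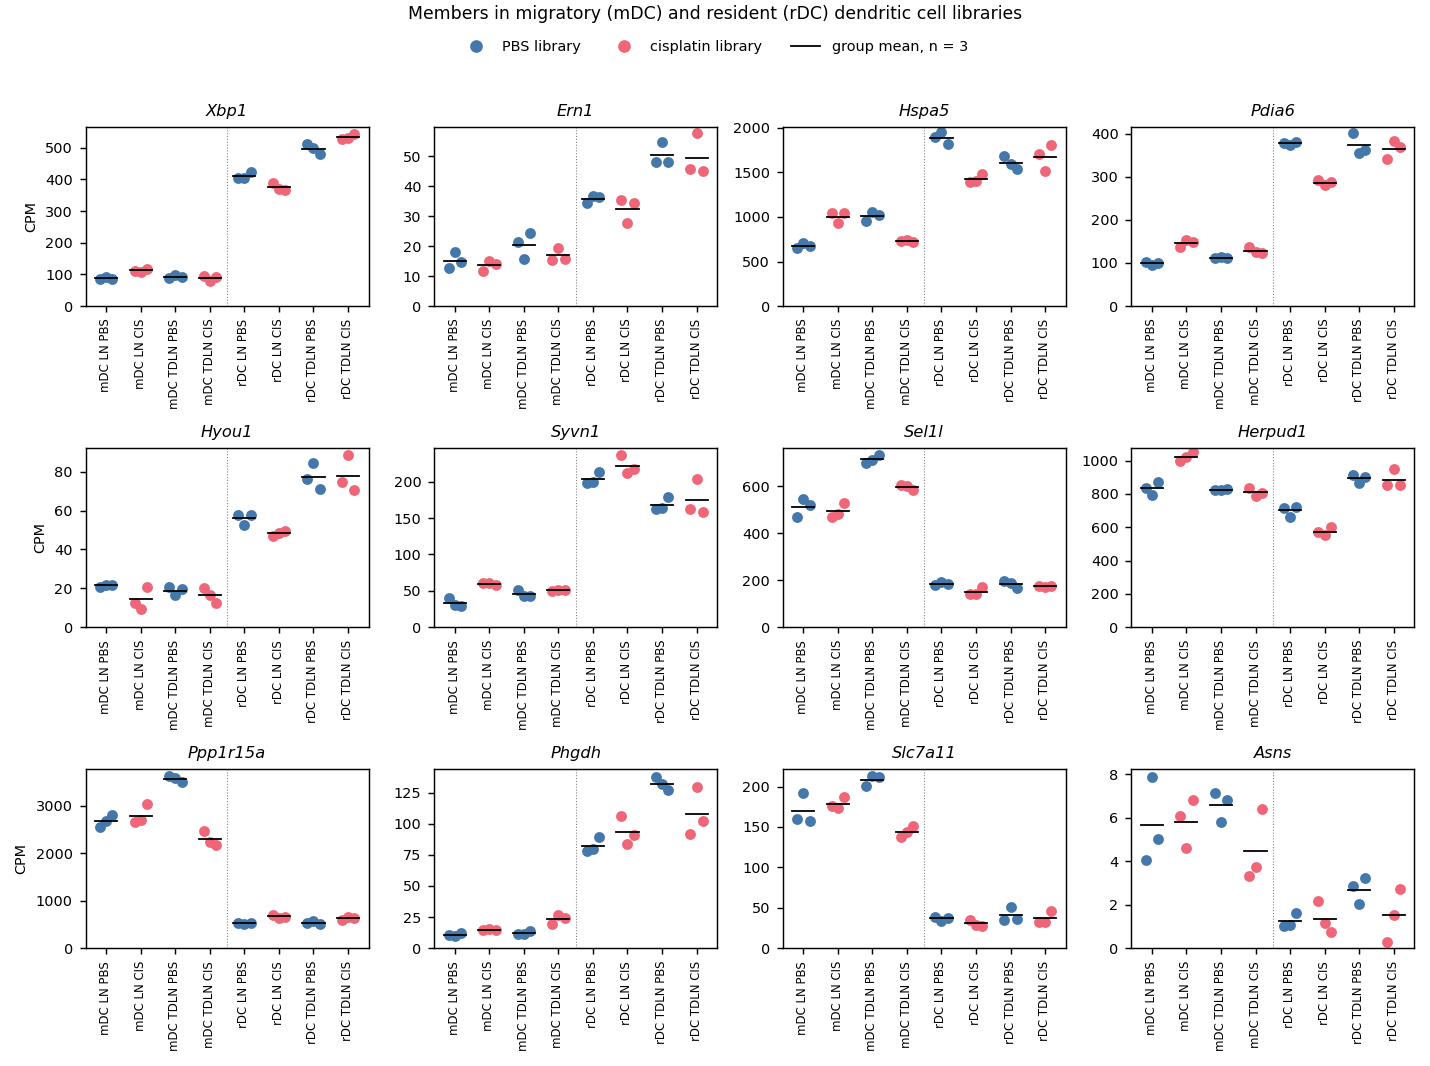
CPM of 12 members in the 24 dendritic cell libraries, scaled together. Each point is 1 library and each bar the mean of 3. Xbp1, Ern1, Hspa5, Pdia6, Hyou1, Syvn1 and Phgdh sit lower in mDC, at left of the dotted line, and Sel1l, Ppp1r15a, Slc7a11 and Asns sit higher.

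Beyond the 31 members, 29 further genes of ER folding, degradation and translocation were listed. Of these 22 were lower and 4 higher in mDC in LN PBS (35.0% and 31.5% of all genes) and 17 and 4 in LN CIS (28.7% and 26.2%). In TDLN PBS 17 were lower and 7 higher (35.4% and 37.0%), and in TDLN CIS 21 and 5 (28.6% and 27.5%). Txndc5, a disulfide isomerase, averaged 118 CPM in mDC and 350 CPM in rDC of LN PBS, and Wfs1, an ER membrane protein, 9.34 and 46.0 CPM. Of 26 further genes of the ATF4 program 23 were tested, and 9 to 12 were higher and 8 to 12 lower. Of all genes, 26.2% to 37.0% were higher and 28.6% to 35.4% lower over the same 4 comparisons. Mthfd2, an enzyme of mitochondrial folate metabolism, averaged 169 CPM in mDC and 43.0 CPM in rDC of LN PBS. Of 8 eIF2 kinases and regulators, 1 to 6 were lower and 1 or 2 higher, beside the same shares of all genes. Markers of other cell types differed between mDC and rDC as well. Over 7 markers of plasmacytoid dendritic cells, a type with much Xbp1 and ER, mDC held 139 to 196 CPM and rDC 2322 to 4688 CPM, with Siglech at 4.43 to 17.6 and 815 to 1669 CPM. Over 7 B cell markers, mDC held 142 to 406 CPM and rDC 1537 to 3385 CPM, and over 7 plasma cell markers 186 to 248 and 227 to 263 CPM. Single plasma cell markers went both ways. Group means of Mzb1 ran from 3.51 to 12.7 CPM in mDC and from 36.2 to 44.8 CPM in rDC. Those of Jchain ran from 7.80 to 41.6 CPM and from 2.03 to 9.19 CPM. The part of these cells in the lower chaperones of mDC was not tested.

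Within a cell type, CPM below are scaled over its 12 libraries, so they differ slightly from those above. Member counts under other settings are no result about the members where no share of all genes stands beside them. In mDC of the LN, Hspa5 and 3 other chaperones of 13 were higher with cisplatin. Of 29 members tested, 8 were higher and 0 lower with cisplatin, where 6.15% and 4.82% of all genes were. They were Hspa5, Pdia6, Dnajb9, Pdia4, Syvn1, Herpud1, Xbp1 and Atf3. Hspa5 held 622, 645 and 630 CPM with PBS and 955, 854 and 945 CPM with cisplatin, so the groups did not overlap (log2 fold change 0.54 ± 0.05, adjusted p = 1.6e-07). Syvn1 went from 38.4, 28.4 and 27.8 CPM to 55.4, 55.2 and 52.7 CPM (0.78 ± 0.13, adjusted p = 2.8e-04). Pdia6 went from 98.5, 86.6 and 93.4 CPM to 126, 139 and 135 CPM (0.52 ± 0.08, adjusted p = 6.0e-05). Every cisplatin library lay above every PBS library in these 3 genes.

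In the same comparison Dnajb9 rose by 0.50 ± 0.12, Atf3 by 0.36 ± 0.06, Pdia4 by 0.35 ± 0.10, Xbp1 by 0.31 ± 0.08 and Herpud1 by 0.26 ± 0.05. The call of Dnajb9 was lost without mDC LN CIS 2 (adjusted p = 0.075), that of Xbp1 without mDC LN CIS 3 (0.053) or mDC LN PBS 3 (0.058), and that of Pdia4 without any of 4 single libraries (up to 0.13). None of the 5 ATF4 targets tested was called by edgeR or by DESeq2, and 1 had an unadjusted p under 0.05. Hyou1, at 11.4, 8.72 and 18.9 CPM with cisplatin and 19.8, 20.1 and 20.6 CPM with PBS, did not pass. Of the further genes, 1 of 29 ER folding genes and 2 of 21 tested genes of the ATF4 program rose, where 6.15% of all genes did. Cebpb, a transcription factor, averaged 58.3 CPM with cisplatin and 36.1 CPM with PBS. Markers also differed. The 6 dendritic cell genes summed to 12165 to 13285 CPM with cisplatin and 8128 to 8370.1 CPM with PBS, 9 macrophage markers to 1111 to 1174 and 696 to 757 CPM, 7 B cell markers to 300 to 341 and 142 to 166 CPM, and 13 dissociation genes to 13614 to 14386 and 12451 to 12927 CPM. The 7 plasma cell markers summed to 186 to 202 and 188 to 236 CPM, but single ones moved in opposite directions. Jchain averaged 41.6 CPM with cisplatin and 7.80 CPM with PBS, and Mzb1 12.7 and 3.51 CPM. Irf4 averaged 56.9 and 89.2 CPM, and Sdc1 4.67 and 5.27 CPM. The part of all these markers in the result was not tested.

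In mDC of the TDLN 4 chaperones were lower and 1 higher with cisplatin, and 2 enzymes of serine synthesis were higher. Of 29 members, 3 were higher and 7 lower (14.1% and 13.2% of all genes). Phgdh went from 9.83, 9.68 and 11.9 CPM with PBS to 17.9, 24.7 and 22.1 CPM with cisplatin (1.04 ± 0.15, adjusted p = 2.9e-05), and Psat1 from 2.04, 4.87 and 4.09 to 9.11, 10.6 and 9.31 CPM (1.37 ± 0.31, adjusted p = 1.9e-03). In both genes the groups were apart. Hspa5 fell from 812, 886 and 859 CPM to 663, 683 and 658 CPM (-0.35 ± 0.05, adjusted p = 2.1e-05). Ppp1r15a (-0.51 ± 0.05), Dnajb9 (-0.50 ± 0.10), Atf4 (-0.46 ± 0.08), Slc7a11 (-0.41 ± 0.07), Hsp90b1 (-0.34 ± 0.06) and Canx (-0.30 ± 0.05) fell too. Pdia6 rose by 0.31 ± 0.07, as in the LN. The PBS group here holds 3 of the deep libraries. Keeping genes of low counts moved all genes tested by -0.28 in this comparison and gave 2 higher and 16 lower members, with Pdia6 no longer called (0.03). Depth thinned to 3000000 counts gave 3 higher and 8 lower. Summed dissociation genes stood at 10760.1 to 11418 CPM with cisplatin and 15183 to 15972 CPM with PBS, beside the lower Ppp1r15a, and their part was not tested.

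In rDC cisplatin came with lower chaperones in the LN and with few differences in the TDLN. In the LN 1 of 30 members was higher and 8 were lower (10.7% and 7.17% of all genes). Hspa5 fell from 2065, 2085 and 1967 CPM to 1579, 1605 and 1656 CPM (-0.34 ± 0.07, adjusted p = 5.3e-03), Pdia3 from 690, 694 and 639 to 495, 519 and 471 CPM (-0.45 ± 0.09, adjusted p = 4.0e-03) and Atf3 from 387, 380 and 375 to 268, 262 and 260 CPM (-0.53 ± 0.07, adjusted p = 1.4e-04). The groups did not overlap in any of the 3. Sdf2l1 (-0.60 ± 0.15), Pdia6 (-0.33 ± 0.07), Hsp90b1 (-0.32 ± 0.11), Canx (-0.30 ± 0.08) and Herpud1 (-0.23 ± 0.07) were the other lower members. Ppp1r15a rose, from 589, 550 and 587 to 804, 726 and 741 CPM (0.40 ± 0.08, adjusted p = 2.5e-03). The LN PBS group is the deep one. With genes of low counts kept, all genes moved by -0.30, the members split into 0 higher and 22 lower and Ppp1r15a was not called (0.10). With depth thinned, 1 was higher and 5 lower. The call of Herpud1 was lost without rDC LN CIS 2 (adjusted p = 0.076), rDC LN PBS 1 (0.12) or rDC LN PBS 3 (0.13). Summed dendritic cell markers were 15591 to 17235 CPM with cisplatin and 22604 to 23346 CPM with PBS, and the part of this was not tested.

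In rDC of the TDLN only Atf3, a stress-induced repressor, was called of 30 members, where 0.399% of all genes were higher and 0.613% lower. It held 279, 304 and 276 CPM with cisplatin and 242, 209 and 214 CPM with PBS (0.37 ± 0.08, adjusted p = 0.024). The groups were apart, yet the call was lost without rDC TDLN PBS 2 (adjusted p = 0.15) or rDC TDLN PBS 3 (0.19) and with the 6 compared libraries alone (0.20). Hspa5, at 1889, 1722 and 2026 CPM with cisplatin and 1901, 1802 and 1716 CPM with PBS, showed overlapping groups. Without rDC TDLN CIS 2, which stood apart, 2 members were called, beside 4.26% of all genes. The dot plot of cisplatin over PBS sets the 4 dendritic cell comparisons side by side.

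**Figure D3:**
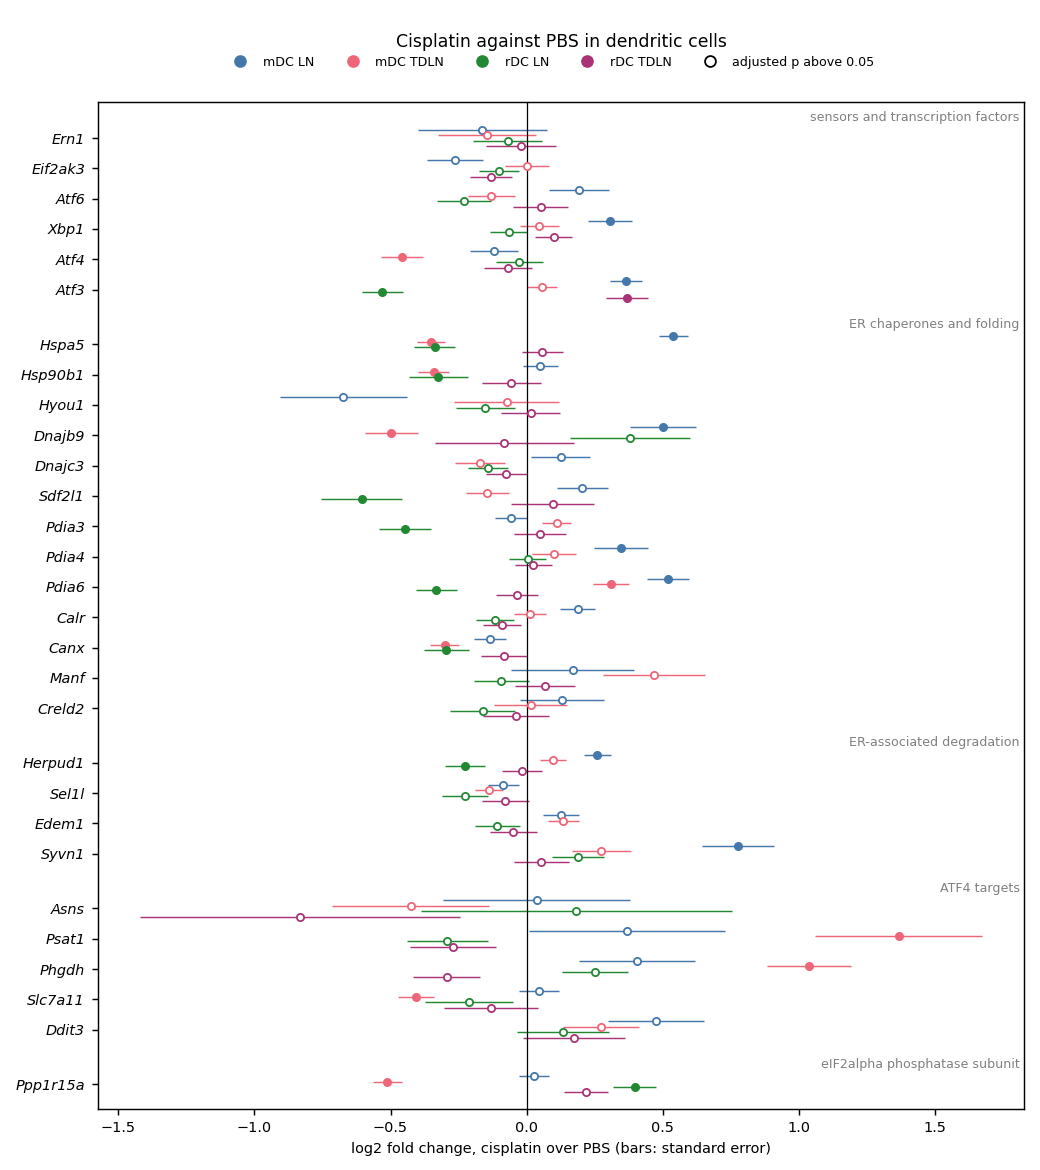
Log2 fold change of cisplatin over PBS with standard errors for 29 members in mDC and rDC of the LN and the TDLN, 3 libraries a group; Trib3 and Chac1 were left out, as mDC held too few counts to test them. Filled points pass an adjusted p of 0.05. Hspa5 lies right of 0 in mDC of the LN and left of 0 in mDC of the TDLN and rDC of the LN.

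Whether the response to cisplatin differed between nodes was tested as an interaction. In mDC, 7 of 29 members had a lower response in the TDLN than in the LN and 0 a higher one (7.17% and 8.43% of all genes). Dnajb9 differed by -0.996 ± 0.16, Hspa5 by -0.89 ± 0.07, Ppp1r15a by -0.54 ± 0.08, Syvn1 by -0.50 ± 0.17, Slc7a11 by -0.45 ± 0.10, Hsp90b1 by -0.39 ± 0.09 and Atf3 by -0.31 ± 0.08. The call of Syvn1 was lost with DESeq2 (adjusted p = 0.076), with its size factors in edgeR (0.055) and in 9 of 12 fits that left out 1 library (up to 0.13). In rDC, 3 of 30 members had a higher response in the TDLN and 0 a lower one (2.62% and 2.70% of all genes): Atf3 by 0.90 ± 0.11, Pdia3 by 0.49 ± 0.13 and Hspa5 by 0.39 ± 0.11. Of the 12 fits that left out 1 library, 11 lost the call of Pdia3 (adjusted p up to 0.084) and 7 that of Hspa5 (up to 0.096). Without rDC TDLN CIS 2, which stood apart, 9 members of rDC were called, beside 12.4% of all genes. Both interactions contain a deep group, and the cell types were not compared with each other. For Hspa5 in mDC the 2 responses had opposite signs, 0.54 in the LN and -0.35 in the TDLN.

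Between nodes, Xbp1, Ern1, Hyou1, Creld2 and Herpud1 were higher in rDC of the TDLN than in rDC of the LN with either treatment. With PBS 6 of 30 members were higher and 2 lower in the TDLN (14.9% and 12.1% of all genes), and with cisplatin 8 were higher and 1 lower (7.83% and 6.97%). No other member was higher with both treatments. Xbp1 held 441, 421 and 407 CPM in the LN and 584, 603 and 609 CPM in the TDLN with cisplatin (0.50 ± 0.07, adjusted p = 1.2e-04), and 441, 431 and 458 against 576, 564 and 536 CPM with PBS (0.33 ± 0.07, adjusted p = 1.9e-03). Herpud1 held 646, 630 and 666 against 947, 1076 and 957 CPM with cisplatin (0.62 ± 0.07, adjusted p = 3.4e-05). TDLN and LN libraries were apart in each of these sets. Hyou1 rose by 0.68 ± 0.11 with cisplatin and 0.52 ± 0.10 with PBS, and Ern1 by 0.59 ± 0.13 and 0.55 ± 0.12.

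With cisplatin Sdf2l1 (0.70 ± 0.16), Creld2 (0.49 ± 0.12) and Pdia6 (0.34 ± 0.08) were higher in rDC of the TDLN and Syvn1 was lower (-0.35 ± 0.10). The call of Syvn1 was lost without rDC LN CIS 1, rDC TDLN CIS 1 or rDC TDLN CIS 3 (adjusted p up to 0.10), and that of Creld2 with PBS without library 2 or 3 of either PBS group (up to 0.14). With PBS Phgdh was higher, at 155, 149 and 142 CPM in the TDLN and 84.7, 85.3 and 96.4 CPM in the LN (0.74 ± 0.12), and Atf3 was lower (-0.78 ± 0.08). The PBS comparison rests on the deep rDC LN group: with genes of low counts kept all genes moved by -0.26 and the split became 1 higher and 6 lower, with Xbp1 at 0.07, while the cisplatin comparison, without deep libraries, gave 6 higher and 2 lower and kept Xbp1, Hyou1 and Herpud1 called. Without rDC TDLN CIS 2 the cisplatin comparison called 14 members, beside 15.8% of all genes. Of the 29 further ER folding genes, 11 were higher and 1 lower with PBS (14.9% and 12.1% of all genes). With cisplatin 9 were higher and 2 lower (7.83% and 6.97% of all genes). The PBS counts rest on the same deep group. Wfs1 averaged 102 CPM in the TDLN and 58.3 CPM in the LN with cisplatin, Edem2, a mannosidase of ER-associated degradation, 327 and 199 CPM, and P4hb, a disulfide isomerase, 688 and 476 CPM. Markers of plasmacytoid dendritic cells summed to 2322 to 2638 CPM in rDC of the LN and 3882 to 4688 CPM in rDC of the TDLN. Plasma cell markers stood at 231 to 253 and 227 to 263 CPM, and B cell markers at 2911 to 3385 and 1537 to 1786 CPM. Among the plasma cell markers, Jchain averaged 2.03 CPM in the LN and 9.19 CPM in the TDLN with PBS, and 5.04 and 3.24 CPM with cisplatin. Their part in the node difference was not tested.

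In mDC the node difference of some members changed sign with treatment. With PBS 8 of 29 members were higher and 4 lower in the TDLN (14.8% and 14.3% of all genes), and with cisplatin 4 were higher and 9 lower (7.57% and 7.21%). Sel1l was higher in both, at 447, 499 and 486 CPM in the LN and 589, 599 and 615 CPM in the TDLN with PBS (0.33 ± 0.05) and at 430, 442 and 479 against 553, 555 and 531 CPM with cisplatin (0.28 ± 0.05). Its LN and TDLN libraries did not overlap. Atf3, Calr and Herpud1 were called lower in the TDLN with both treatments. Their signs with PBS turned when genes of low counts were kept. Hspa5 was higher in the TDLN with PBS (0.43 ± 0.05) and lower with cisplatin (-0.46 ± 0.05), as was Dnajb9 (0.65 ± 0.11 and -0.34 ± 0.11). Atf3 fell from 325, 366 and 362 CPM to 225, 217 and 221 CPM with cisplatin (-0.66 ± 0.06, adjusted p = 1.5e-08). Xbp1 (-0.34 ± 0.08), Calr (-0.34 ± 0.06), Herpud1 (-0.33 ± 0.05), Slc7a11 (-0.30 ± 0.07) and Ppp1r15a (-0.28 ± 0.05) were lower with cisplatin as well, while Eif2ak3 (0.46 ± 0.10) and Phgdh (0.65 ± 0.18) were higher. The call of Dnajb9 with cisplatin was lost without mDC LN CIS 2 (adjusted p = 0.33), mDC TDLN CIS 1 (0.14) or mDC TDLN CIS 2 (0.15), and that of Phgdh without mDC TDLN CIS 2 (0.084). With PBS the TDLN group is deep, and keeping genes of low counts moved all genes by 0.35 and made the split 22 higher and 0 lower. With cisplatin, dendritic cell genes summed to 12165 to 13285 CPM in the LN and 7442 to 7831 CPM in the TDLN, and dissociation genes to 13614 to 14386 and 10760.1 to 11418 CPM. Their part in the node difference was not tested.

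In comparisons of MSM with SSM, CPM are scaled over the 24 macrophage libraries. In LN PBS, MSM libraries held 1712, 1070 and 1557 CPM of Hspa5 and SSM libraries 1156, 1576 and 1156 CPM. In each trio library 2 sat with the other label. Against this spread, 0 of 31 members differed between MSM and SSM in LN PBS and 0 in TDLN CIS, as did 0.00% of all genes in each. DESeq2 called 0 members in both, and 0 and 1 members had an unadjusted p under 0.05. Without the 4 libraries 23 members were called in LN PBS (14 higher and 9 lower in MSM) and 27 in TDLN CIS (20 and 7), beside 62.0% and 63.3% of all genes. Shares near the background are no result about the members.

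Between MSM and SSM, TDLN PBS and LN CIS are the 2 settings that hold none of the 4 libraries resembling the other label. In LN CIS, however, the label of the MSM libraries goes against their macrophage markers, as given above. Adgre1, one of these markers, averaged 3.65 CPM in MSM and 387 CPM in SSM of LN CIS. In TDLN PBS 8 of 31 members were higher and 6 lower in MSM (14.4% and 26.4% of all genes), with 5 of 13 chaperones higher and 1 lower and 3 of 7 ATF4 targets lower and 1 higher. Pdia4 (0.81 ± 0.12), Hsp90b1 (0.64 ± 0.20), Pdia6 (0.62 ± 0.12) and Sdf2l1 (0.59 ± 0.23) were higher, the call of Sdf2l1 being lost in each of the 6 fits that left out 1 library (adjusted p up to 0.13). Hyou1 was lower (-0.65 ± 0.17). Psat1 (-2.42 ± 0.22), Asns (-1.61 ± 0.47), Phgdh (-1.31 ± 0.14) and Syvn1 (-1.18 ± 0.25) were lower. Trib3, a pseudokinase induced by ATF4, held 6.66, 8.81 and 6.58 CPM in MSM and 0.251, 0.103 and 0.495 CPM in SSM, with no overlap (adjusted p = 1.7e-06). With only the 6 compared libraries 14 were higher and 9 lower, beside 76.3% of all genes. Without the 4 doubted libraries 10 of the 13 chaperones were higher and 1 was lower (28.1% and 39.0% of all genes). The 8 neutrophil markers came to 8106 to 8409 CPM in the MSM libraries of this setting and, in the SSM libraries, to 165 to 204 CPM, and their part was not tested.

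In LN CIS 5 of 31 members were higher and 9 lower in MSM (20.7% and 29.0% of all genes), and with DESeq2 size factors, which moved all genes by 0.14, 7 and 8. Atf3 held 106, 87.7 and 93.7 CPM in MSM and 785, 779 and 759 CPM in SSM (-3.01 ± 0.36, adjusted p = 1.6e-06), and Atf6 22.5, 20.3 and 17.6 against 136, 125 and 127 CPM (-2.68 ± 0.22). Phgdh was higher in MSM, at 167, 164 and 171 against 52.3, 49.9 and 56.6 CPM (1.66 ± 0.14). No library overlapped in these genes. Asns held 0, 0.246 and 0.122 CPM in MSM and 8.60, 7.94 and 8.27 CPM in SSM, and Trib3 13.9, 15.6 and 15.8 against 6.66, 5.29 and 5.10 CPM. The MSM LN CIS libraries, with Siglec1 near 0 as given above, held 4242 to 4453 CPM of migratory dendritic cell markers and 4188 to 4287 CPM of B cell markers against 746 to 779 and 186 to 195 CPM in SSM. How far these set the difference was not tested.

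In MSM of the TDLN, 5 chaperones were lower and 4 ATF4 targets higher with cisplatin (CPM scaled over the 12 MSM libraries). Of 31 members 6 were higher and 5 lower (25.6% and 11.5% of all genes). The 5 lower ones were all chaperones or folding enzymes: Creld2 (-0.98 ± 0.22), Pdia4 (-0.78 ± 0.12), Pdia3 (-0.67 ± 0.19), Pdia6 (-0.65 ± 0.12) and Manf (-0.49 ± 0.10). Among the 6 higher ones were Psat1 (1.498 ± 0.26), Phgdh (1.19 ± 0.14) and Asns (2.33 ± 0.56), with Syvn1 (0.88 ± 0.26) and Herpud1 (0.52 ± 0.10). The sixth was Chac1, a glutathione-degrading enzyme, at 0 CPM in each PBS library and 0, 3.12 and 3.82 CPM with cisplatin (adjusted p = 0.019), so its groups overlapped at 0. Phgdh held 38.1, 38.9 and 33.5 CPM with PBS and 99.8, 75.9 and 77.1 CPM with cisplatin, and Pdia4 384, 372 and 375 against 181, 250 and 225 CPM. Library 1 of the cisplatin trio, the doubted one, lay at the far end of both, and the groups stayed apart without it. Without that library alone 17 members were called, beside 44.9% of all genes. The call of Syvn1 was lost without any 1 of the 3 PBS libraries (adjusted p up to 0.097), and its value ran from 0.45 to 1.07 over the fits that left out 1 library. Without the 4 libraries 16 members were higher and 10 lower (41.6% and 27.4% of all genes), with 8 of 13 chaperones lower and 3 higher and with 4 of 7 ATF4 targets higher and 2 lower, and all 11 first calls held with their sign. The 8 neutrophil markers came to 8106 to 8409 CPM with PBS and 688 to 5422 CPM with cisplatin. Macrophage markers summed to 22609.8 to 23000 CPM with PBS and 8009 to 12432 CPM with cisplatin. Mast cell markers stood at 50.2 to 59.8 and 1371 to 2473 CPM, and B cell markers at 36.8 to 44.1 and 346 to 4307 CPM. The part of all these markers was not tested.

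In the LN, MSM with cisplatin had 7 higher and 7 lower members (16.6% and 26.8% of all genes). Atf6 (-2.13 ± 0.25) and Atf3 (-1.92 ± 0.31) were lower and Xbp1 was higher, at 334, 332 and 338 CPM against 191, 198 and 191 CPM (0.79 ± 0.09, adjusted p = 9.9e-05). Sel1l (0.78 ± 0.21) and Trib3 (1.89 ± 0.42) rose, and Asns went from 10.7, 8.48 and 10.4 CPM to 0, 0.249 and 0.125 CPM. Between nodes, MSM of the TDLN had 5 higher and 9 lower members with PBS (11.6% and 26.6% of all genes), or 3 and 9 with genes of low counts kept, and 4 higher and 8 lower with cisplatin (26.7% and 16.6%). With PBS Pdia4 (0.84 ± 0.12), Pdia6 (0.82 ± 0.12), Pdia3 (0.74 ± 0.19) and Hsp90b1 (0.60 ± 0.21) were higher in the TDLN, Hyou1 was lower (-0.86 ± 0.21), and 5 of 7 ATF4 targets were lower, among them Phgdh (-1.55 ± 0.14), Psat1 (-1.52 ± 0.26) and Slc7a11 (-1.08 ± 0.23). The call of Hsp90b1 was lost in each of the 6 fits that left out 1 library (adjusted p up to 0.10), and that of Hyou1 without MSM TDLN PBS 1 or 3 (up to 0.068). Neutrophil markers ran from 205 to 4549 CPM in MSM LN PBS and from 8106 to 8409 CPM in MSM TDLN PBS, and macrophage markers from 13055 to 13731 and from 22609.8 to 23000 CPM. Their part was not tested. Without the 4 libraries 12 higher and 14 lower members were called for cisplatin in the LN (33.4% and 40.7% of all genes), 13 and 16 for the node with PBS (29.0% and 40.7%) and 12 and 11 for the node with cisplatin (41.6% and 32.8%), with all calls above among them. Each comparison with MSM LN CIS rests on the libraries whose macrophage markers were low.

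In SSM of the LN, Xbp1 was higher with cisplatin (CPM scaled over the 12 SSM libraries). Of 30 members 5 were higher and 1 lower there (5.85% and 7.42% of all genes). Xbp1 held 193, 192 and 203 CPM with PBS and 373, 377 and 395 CPM with cisplatin (0.96 ± 0.09, adjusted p = 5.1e-04), and library 2 of the PBS trio did not stand out in this gene. Pdia6 went from 275, 220 and 259 to 418, 400 and 415 CPM (0.71 ± 0.14) and Psat1 from 19.8, 25.0 and 18.1 to 38.7, 39.9 and 39.4 CPM (0.91 ± 0.16), while Phgdh fell by 0.82 on the log2 scale. Atf3 (1.295 ± 0.35) and Atf6 (0.79 ± 0.17) rose, but both calls were lost in 5 of the 6 fits that left out 1 library, all except that without SSM LN PBS 2 (adjusted p up to 0.12 and 0.063). The groups were apart in each of these. Without the 4 libraries 18 members were higher and 4 lower (30.1% and 29.9% of all genes), with 8 of 13 chaperones higher and 0 lower. Macrophage markers summed to 12968 to 13336 CPM with PBS and 22732 to 23269.9 CPM with cisplatin, and their part was not tested.

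In SSM of the TDLN 2 members were called, 1 higher and 1 lower with cisplatin (23.0% of all genes were called). Pdia3 fell (-0.60 ± 0.18), a call lost in 5 of the 6 fits that left out 1 library, all except that without SSM TDLN CIS 3 (adjusted p up to 0.14, values from -0.86 to -0.45). Trib3 went from 0.249, 0.101 and 0.490 CPM to 4.60, 4.72 and 1.75 CPM (adjusted p = 2.2e-03). Mast cell markers summed to 47.5 to 69.1 CPM with PBS and 1447 to 2405 CPM with cisplatin. Neutrophil markers stood at 165 to 204 and 631 to 5391 CPM, and B cell markers at 854 to 866 and 377 to 4196 CPM. The part of these markers was not tested. Without SSM TDLN CIS 3, the doubted library, 13 members were called, beside 49.0% of all genes, and without all 4 doubted libraries 5 were higher and 16 lower (34.6% and 36.5% of all genes), with 10 of the 13 chaperones lower and 1 higher. Between nodes with PBS 6 of 30 members were called, 1 higher and 5 lower in the TDLN. Of all genes 19.7% were called, a share not split by direction. The number called is near that share and no result about the members. Among the 6 were Trib3, Asns (-2.05 ± 0.39) and Ern1 (-2.01 ± 0.50, lost without any 1 of the 3 TDLN libraries, adjusted p up to 0.081). Between nodes with cisplatin 1 was higher and 9 lower (8.79% and 8.65% of all genes). With cisplatin Atf3 (-1.52 ± 0.35), Xbp1 (-1.29 ± 0.09), Atf6 (-0.999 ± 0.17), Edem1 (-0.89 ± 0.20) and Pdia3 (-0.66 ± 0.18) were lower in the TDLN. Of the 6 fits that left out 1 library, 5 lost the call of Pdia3 (adjusted p up to 0.12), 4 that of Atf3 (up to 0.058) and 2 that of Edem1 (up to 0.051). Xbp1 held 158, 159 and 153 CPM there and 373, 377 and 395 CPM in the LN, so the groups were apart. Without the 4 libraries the counts were 8 higher and 12 lower with PBS (34.0% and 33.8% of all genes) and 4 and 20 with cisplatin (30.1% and 31.8%), the latter with 11 of 13 chaperones lower and 1 higher. Macrophage markers summed to 22732 to 23269.9 CPM in SSM LN CIS and 8061 to 11949 CPM in SSM TDLN CIS, and B cell markers to 186 to 195 and 377 to 4196 CPM, and their part was not tested. With PBS, neutrophil markers stood at 149 to 4432 CPM in SSM of the LN and 165 to 204 CPM in SSM of the TDLN. Mast cell markers stood at 142 to 821 and 47.5 to 69.1 CPM, and B cell markers at 237 to 3196 and 854 to 866 CPM. Their part with PBS was not tested either. Without SSM LN PBS 2 alone 11 members were called with PBS, beside 36.2% of all genes, and without SSM TDLN CIS 3 alone 19 with cisplatin, beside 35.0%.

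**Figure D4:**
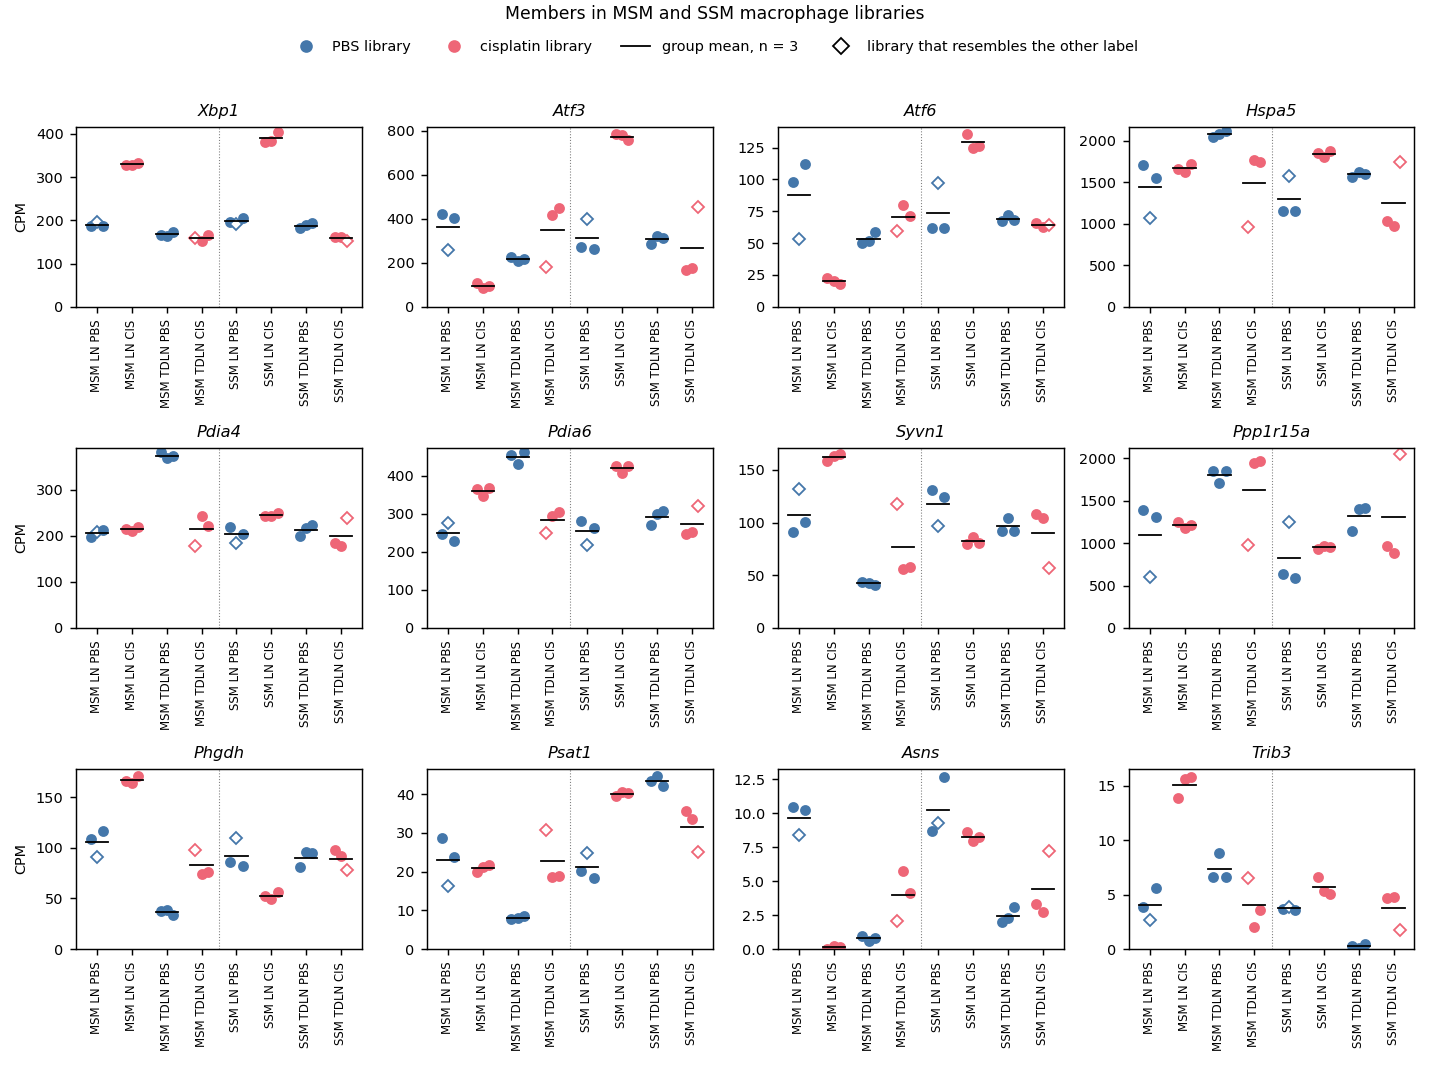
CPM of 12 members in the 24 macrophage libraries, scaled together. Points are libraries, bars means of 3, and open diamonds the 4 libraries that resemble the other label. Xbp1 is highest in the LN cisplatin groups of both cell types, and diamonds of Hspa5, Atf3, Syvn1 and Ppp1r15a sit beside the other cell type's circles.

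Chaperones and ATF4 targets were set side by side over the 16 groups by an index, the mean over the members of a class of log2(CPM + 1) after subtracting each gene's mean over the 24 libraries of its table. In dendritic cells the chaperone index separated the cell types, from -0.62 to -0.34 in mDC libraries and from 0.25 to 0.57 in rDC libraries. The ATF4 target index did not, from -0.42 to 0.20 in mDC and from -0.18 to 0.50 in rDC. It averages targets that went opposite ways between these cells, with Phgdh and Psat1 lower and Slc7a11 and Asns higher in mDC. Its overlap therefore does not mean that single targets were alike. In macrophages the highest chaperone index went with the lowest ATF4 target index, both in MSM TDLN PBS (0.32 ± 0.03 and -0.70 ± 0.03, SD, n = 3). SSM TDLN PBS had chaperone indices from -0.03 to 0.01 and an ATF4 target index of -0.53 ± 0.09, and SSM LN CIS at 0.16 ± 0.04 and 0.21 ± 0.07, with both indices above the mean. In MSM LN CIS, whose label goes against its macrophage markers, the chaperone index was -0.08 ± 0.02 beside an ATF4 target index of 0.48 ± 0.02. The ATF4 target index averages opposed targets in macrophages too. Against SSM, Asns was lower and Phgdh and Trib3 higher in MSM of LN CIS. In MSM of TDLN PBS, Trib3 was higher and Psat1, Asns and Phgdh lower. The doubted library of MSM LN PBS had indices of -0.12 and 0.07, near the 2 other SSM LN PBS libraries, and that of SSM LN PBS 0.03 and 0.56, near the 2 other MSM LN PBS libraries. These indices describe the libraries and carry no test.

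**Figure D5:**
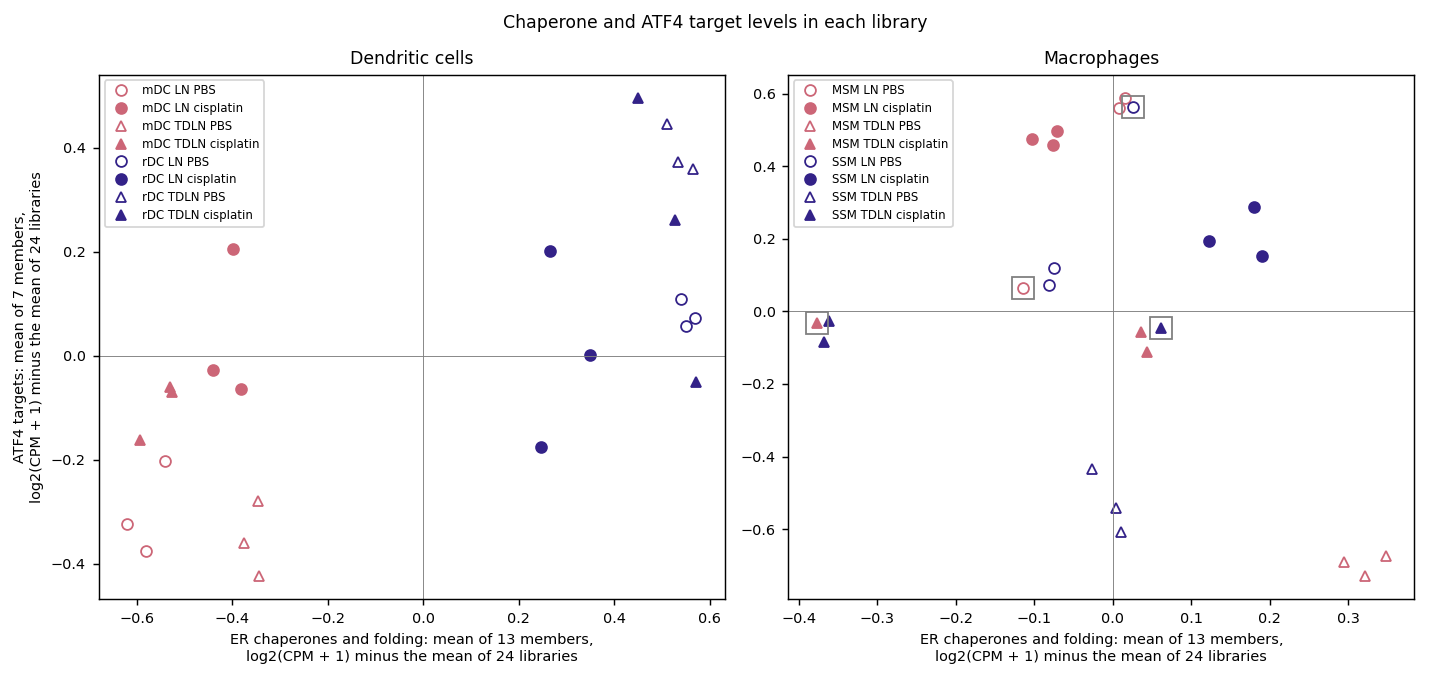
Mean centred log2(CPM + 1) of 7 ATF4 targets against that of 13 chaperone and folding genes, 1 point for each of 48 libraries. Grey squares mark the 4 macrophage libraries that resemble the other label. mDC and rDC part along the horizontal axis, and MSM TDLN PBS takes the lower right corner of the macrophage panel.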

How the data were processed

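Polyadenylated RNA of sorted cells was sequenced from a stranded kit, per the labels' protocols, in 48 libraries. Reads were aligned with STAR and quantified with RSEM 1.3.0 on GRCm38, and DESeq2 1.38.3 is also named, per the submitters' processing notes. The authors deposited RSEM expected counts as whole numbers, and these were used unchanged. The authors also deposited TPM values, which were used only to order members by level. The macrophage TPM were deposited without decimals and are therefore treated as a score. Gene identifiers were paired with symbols for 99.4% of genes. Dendritic cell columns headed Tumor were taken as TDLN and those headed WT as LN, the remaining node.

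Each cell type was fitted on its 12 libraries, and each pair of cell types on its 24, with edgeR 4.0.16 under R 4.3.3 (TMM scaling, filterByExpr by group, quasi-likelihood test, Benjamini-Hochberg adjustment over all genes tested at 0.05). There were 12519 to 19671 genes in a fit. Of 31 members the filter passed 31 in MSM, 30 in SSM (not Chac1), 29 in mDC (not Trib3 or Chac1) and 30 in rDC (not Trib3), and 31 and 30 in the macrophage and dendritic cell pairs. A member was named where it was called, averaged at least 4 CPM and its groups did not overlap, up to 4 per class and direction. Hspa5, Xbp1, Ddit3, Atf4 and Trib3 could be named in any comparison, and the other named members were chosen after their values were seen. The members, the lists and the 4 libraries that resemble the other label were chosen with earlier results of these data known. Alternatives were DESeq2 1.42.0, its size factors in edgeR, no filter on low counts, only the compared libraries, a replicate block, libraries above 5000000 counts thinned to 3000000 counts, each library left out in turn, and fits without the 4 libraries. The test was tried on simulated data.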

Additional observations from a re-analysis of the deposited data

Results flagged for a closer look

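In 10 cases a member's response to cisplatin differed between the nodes by the interaction test of edgeR (quasi-likelihood, Benjamini-Hochberg adjustment), given as the log2 response in the TDLN minus that in the LN. Of all genes tested, 15.6% passed this test in mDC and 5.31% in rDC. In mDC, Dnajb9, a co-chaperone of BiP, stood at -0.996 ± 0.16 (adjusted p = 0.00011), and Hspa5, which encodes BiP, at -0.89 ± 0.07 (adjusted p = 1.3e-08). Hsp90b1, the ER member of the HSP90 family, stood at -0.39 ± 0.09 (adjusted p = 0.0034). The ubiquitin ligase gene Syvn1 stood at -0.50 ± 0.17 (adjusted p = 0.049), the phosphatase subunit gene Ppp1r15a at -0.54 ± 0.08 (adjusted p = 3.3e-05), the exchanger gene Slc7a11 at -0.45 ± 0.10 (adjusted p = 0.0029) and the repressor gene Atf3 at -0.31 ± 0.08 (adjusted p = 0.011). The call of Syvn1 was lost with DESeq2 (adjusted p = 0.076), with its size factors in edgeR (0.055) and in 9 of 12 fits that left out 1 library (up to 0.13).

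In rDC the 3 members had the opposite sign, with Atf3 at 0.90 ± 0.11 (adjusted p = 4.7e-05), the disulfide isomerase gene Pdia3 at 0.49 ± 0.13 (adjusted p = 0.041) and Hspa5 at 0.39 ± 0.11 (adjusted p = 0.039). The difference between mDC and rDC in these values was not tested. With the deep libraries thinned, the mDC values ran from -1.07 for Dnajb9 to -0.34 for Atf3, and Pdia3 in rDC was no longer called (adjusted p = 0.052). Of the 12 fits that left out 1 library, 11 lost the call of Pdia3 and 7 that of Hspa5 in rDC (adjusted p up to 0.084 and 0.096).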

How the results depend on the processing

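Numbers here count called members. Where no share of all genes stands beside them, they are no result about the members. Without the 4 libraries that resemble the other label, MSM gave 26 for cisplatin in the TDLN, 26 in the LN, 29 for the node with PBS and 23 with cisplatin. The shares of all genes called were 69.0%, 74.0%, 69.7% and 74.4%. SSM gave 21, 22, 20 and 24 in the same order, beside 71.1%, 60.0%, 67.8% and 61.9% of all genes. MSM against SSM gave 23 in LN PBS, 25 in LN CIS, 24 in TDLN PBS and 27 in TDLN CIS, beside 62.0%, 72.4%, 67.1% and 63.3%. With low-count genes kept, cisplatin gave 1 in SSM of the TDLN, 18 in mDC of the TDLN, 0 in rDC of the TDLN and 22 in rDC of the LN, the node gave 22 in mDC with PBS, MSM against SSM gave 9 in TDLN PBS, and the node difference of the response gave 19 in mDC and 7 in rDC. That setting also turned the sign of Edem1 (-0.13) and Herpud1 (-0.19) in mDC against rDC of LN PBS, and of Atf3 (9.0e-05), Calr (0.19) and Herpud1 (0.18) between nodes in mDC with PBS. Each of these 2 comparisons holds a deep group, and the setting moved the median of all genes by -0.43 and 0.35. The cause was not tested.

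With only the compared libraries, SSM gave 6 and rDC 5 between nodes with cisplatin, rDC gave 0 for cisplatin in the TDLN and 14 in the LN, and MSM against SSM gave 26 in LN CIS and 23 in TDLN PBS. DESeq2 gave 5 for cisplatin in SSM of the TDLN and 6 for the node difference in rDC. Pairing by replicate number was not seen, as in no comparison did every same-numbered pair correlate above 0.1. With 3 libraries a group, this does not exclude pairing. For cisplatin in mDC of the TDLN, 3 libraries were closest to their own number (correlations of 0.114, 0.058 and 0.103). With a replicate block, cisplatin in the TDLN gave 1 in SSM and 0 in rDC, and the node difference in rDC gave 1, with Pdia3 (adjusted p = 0.071) and Hspa5 (0.081) no longer called. Leaving out 1 library moved cisplatin in the TDLN from 8 (without MSM TDLN PBS 2) to 17 (without MSM TDLN CIS 1) in MSM, from 1 to 13 (without SSM TDLN CIS 3) in SSM and from 0 to 2 (without rDC TDLN CIS 2) in rDC. It moved the node comparison of SSM from 3 (without SSM TDLN PBS 1) to 11 (without SSM LN PBS 2) with PBS and from 3 (without SSM LN CIS 1) to 19 (without SSM TDLN CIS 3) with cisplatin. The node comparison of rDC with cisplatin ran from 7 to 14 and its node difference from 1 to 9, both highest without rDC TDLN CIS 2.

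Of 246 called values of single members, DESeq2 kept 243, its size factors 240, low-count genes kept 211 and the block 226. The compared libraries alone kept 215 of 236, thinning 145 of 151, the fits without the 4 libraries 95 of 95 and leaving out single libraries 1324 of 1536. The 95 of 95 is no equal check, because those 4 libraries widen the spread within their groups. Without them the common coefficient of variation between libraries went from 0.418 to 0.071 in MSM and from 0.403 to 0.072 in SSM.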
